A study of Mus musculus with 6 samples.

Results

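Genes of motile cilia and of the programme that builds them were followed in lung RNA of mice labelled Carm1 knockout and of wild-type mice. The genes were a list of 47 chosen by symbol: regulators of multiciliated cells, axonemal dynein arms, radial spokes, central pair proteins, tektins, tubulins and other ciliary components. On the arrays 45 of the 47 were represented by 71 probe sets that carried their symbol alone, out of 18195 genes so represented in all, and no probe set was available here for Mcidas and Sntn. The series comprised 3 Carm1 knockout lungs and 3 wild-type lungs, each hybridised to 1 Affymetrix Mouse Genome 430 2.0 array, on which a group of short probes against a transcript (a probe set) gives 1 signal. The knockout labels give lung of embryonic day 18.5, and the design text gives that day for both genotypes, whereas the wild-type labels say neonatal lung, so genotype and a possible difference in age cannot be told apart from the labels. No strain, allele or Cre driver is named, and whether the lungs came from separate fetuses or litters is not stated, and the p-values below therefore reflect only the spread among these arrays, which may be technical.

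Motile cilia line the conducting airways of the lung, where multiciliated cells beat mucus towards the throat. A ring of doublet microtubules surrounds a central pair. Dynein arms on the doublets slide them against each other, and the radial spokes and central pair control when each arm pulls. In the airway the programme is set in motion by multicilin (Mcidas) and cyclin O (Ccno), which drive the multiplication of centrioles, by Myb, and by the forkhead factor Foxj1 acting with RFX factors such as Rfx2 and Rfx3, which bind a DNA element called the X-box in the promoters of ciliary genes. Carm1 encodes an arginine methyltransferase that serves as a transcriptional coactivator.

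Promoter sequences of members are shown because RFX factors are known to act through the X-box, a feature that neither the list nor the arrays used. RefSeq promoters (GRCm38.p6, 250 bases before to 50 bases after an annotated start) were given for 42 of the 47 members, and not for Foxj1, Lrrc6, Rsph1, Rsph4a and Tppp3. A single arm of the X-box, searched as GTTGCC on both strands, lay in a promoter of 24 of the 42 members, or 57.1%. The same letters were found for 15.0% of the 10424 genes that had both a promoter and a tested probe set, and for 14.1% of all 27025 genes of the promoter table. Among the other lists, 43.1% of other motile cilia genes and 38.9% of genes of intraflagellar transport, the BBSome and the transition zone held it. The 26-base windows below are those of the 8 members that held it and had an unadjusted p under 0.05 in the array comparison, and of the regulators Ccno, Mcidas and Rfx2. The regulator Rfx3 held it as well, too near the end of its promoter for a whole window, and Myb did not. Each is written 5′ to 3′ on the strand that reads GTTGCC, which stands in capitals.
Dynlrb2 (chr8:116504958-116504983, plus strand): tgcctgGTTGCCtagcaacgggggaa
Dnaic2 (chr11:114727379-114727404, minus strand): ttaccaGTTGCCtagcaaccctggcc
Ccdc113 (chr8:95534080-95534105, minus strand): aggcgcGTTGCCtagacaactgaacg
Pifo (chr3:106001498-106001523, plus strand): tactacGTTGCCaagggaacggaacc
Lrrc23 (chr6:124779873-124779898, plus strand): tcagtaGTTGCCaggttacgaggcca
Lrrc23 (chr6:124779747-124779772, minus strand): gcccctGTTGCCataacaacaataaa
Iqcg (chr16:33056186-33056211, minus strand): cgacgcGTTGCCatagctaccgatta
Iqcg (chr16:33056294-33056319, plus strand): atacgtGTTGCCgcttacaaagacga
Tekt1 (chr11:72361878-72361903, minus strand): cgtccgGTTGCCatagagaccgcagt
Tekt1 (chr11:72361906-72361931, plus strand): cgcaacGTTGCCctagttagaagact
Mns1 (chr9:72438443-72438468, minus strand): gtcttcGTTGCCaggcaggagcgctc
Mns1 (chr9:72438538-72438563, plus strand): ttggcgGTTGCCgggacacagcttaa
Ccno (chr13:112987577-112987602, plus strand): gctgcgGTTGCCacggtgacgacaga
Mcidas (chr13:112993667-112993692, plus strand): agccagGTTGCCaggttggttaacgc
Rfx2 (chr17:56831105-56831130, minus strand): gtaaccGTTGCCgggcgcaacgcccc
After the capitals several windows continue with a short spacer and a second, inverted arm that ends in AAC, as in Dynlrb2 and Dnaic2. A longer form with both arms, searched as GTNNCCNNGGNAAC on both strands, can overlap the shorter motif. It was present for 6 of the 42 members (14.3%), namely Ccno, Cfap206, Kif9, Pifo, Spag6l and Tekt4, against 2.0% of genes with a tested probe set and 1.49% of all genes of the table. The forkhead core TGTTTAC was present for 3 of the 42 members (7.14%), against 3.11% of genes with a tested probe set. The 300-base promoters of 3 members that held the longer form are given below on the strand of the gene, with that form in capitals.
Pifo (chr3:106001448-106001747, minus strand): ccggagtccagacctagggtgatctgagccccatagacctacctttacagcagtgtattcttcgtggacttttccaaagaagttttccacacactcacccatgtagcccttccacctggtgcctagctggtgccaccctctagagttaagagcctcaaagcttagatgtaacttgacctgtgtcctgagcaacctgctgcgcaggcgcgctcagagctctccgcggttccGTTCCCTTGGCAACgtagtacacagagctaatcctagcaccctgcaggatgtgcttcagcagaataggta
Cfap206 (chr4:34730157-34730456, minus strand): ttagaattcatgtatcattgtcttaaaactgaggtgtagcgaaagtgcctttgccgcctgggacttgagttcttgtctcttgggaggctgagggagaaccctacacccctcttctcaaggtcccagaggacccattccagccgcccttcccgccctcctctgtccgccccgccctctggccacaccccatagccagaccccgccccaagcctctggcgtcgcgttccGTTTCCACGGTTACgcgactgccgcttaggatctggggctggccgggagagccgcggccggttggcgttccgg
Ccno (chr13:112987552-112987851, plus strand): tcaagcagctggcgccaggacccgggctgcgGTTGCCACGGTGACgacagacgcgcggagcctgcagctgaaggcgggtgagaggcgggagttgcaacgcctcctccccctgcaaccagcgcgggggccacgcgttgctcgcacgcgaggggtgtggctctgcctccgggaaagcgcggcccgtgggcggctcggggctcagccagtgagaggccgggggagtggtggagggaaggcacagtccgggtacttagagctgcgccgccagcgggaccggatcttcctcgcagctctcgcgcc
In Pifo and Cfap206 the match began 20 and 23 bases before the annotated start, and in Ccno 219 bases before it. A match is a match of letters and not a measured binding site.

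On the arrays the whole list leaned to one side. Of the 45 members with a probe set, 44 had one bright enough to be tested, with a mean log2 signal over all 6 arrays above the 40th percentile (a signal of 59.7). Taking the brightest tested probe set of each gene, all 44 had a higher geometric mean signal in Carm1 knockout lungs than in wild-type lungs, where 54.6% of all 12947 tested genes did. Their median log2 difference, knockout minus wild type, was 0.33, with a range from 0.05 for Spag6l to 1.28 for Dnah2, and the median of all tested genes was 0.029. The differences were small, and with limma no member passed an adjusted p of 0.05. The smallest adjusted p was 0.0934, for Tubb4b, and 0.0296% of all tested probe sets passed, or 0.0541% of genes. An unadjusted p under 0.05 was reached by 15 members, all of them higher in knockout, or 34.1%, against 9.14% of all tested genes in that direction. None was lower with such a p, where 7.36% of all tested genes were. The 3 knockout arrays all lay above the 3 wild-type arrays for 16 members (36.4%), against 12.6% of all genes, and all lay below them for none, against 10.5%. With 3 arrays against 3, an exact two-sided permutation test cannot give a p under 0.1, and these 16 members are the ones that reached it. Because whole lung was measured, more ciliated cells and more ciliary RNA per cell cannot be told apart.

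**Figure D1:**
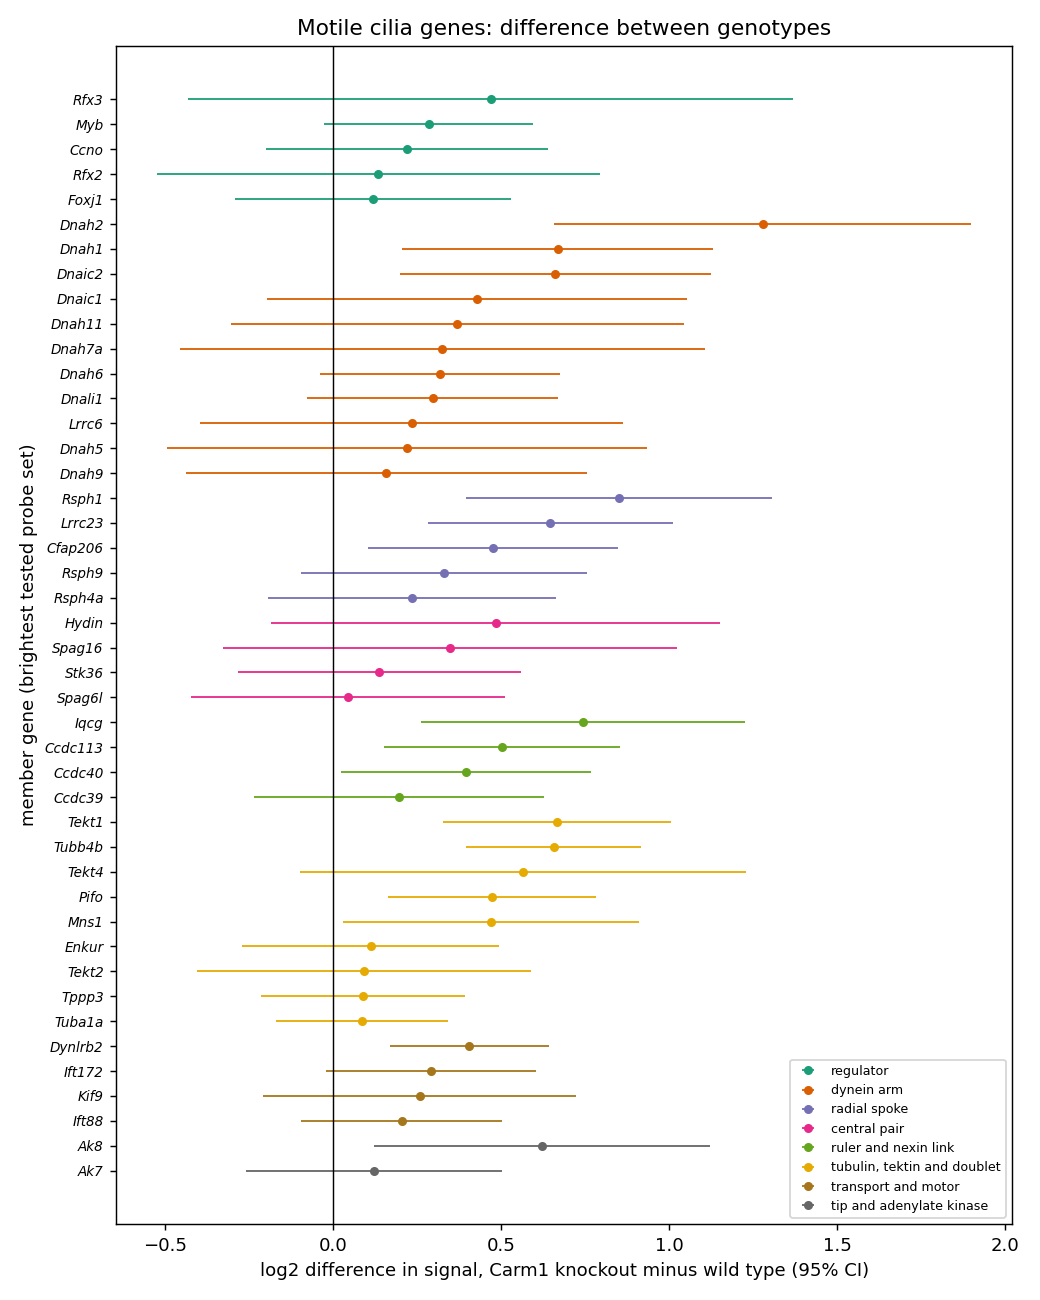
Each point is the log2 difference in signal, Carm1 knockout minus wild type (n = 3 arrays each), of 1 member gene at its brightest tested probe set, grouped and coloured by role, and each bar is its 95% confidence interval from limma. All 44 points lie to the right of 0, and 15 intervals exclude 0.

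The regulators at the top of the programme had the smallest median difference of the roles, although no difference between roles was tested. Foxj1, the forkhead factor that switches on motile cilia genes, had signals of 705, 986 and 641 in knockout lungs and of 741, 773 and 606 in wild-type lungs. The 2 groups overlapped, with only knockout replicate 2 above every wild-type array, and the log2 difference was 0.12 (95% confidence interval from −0.29 to 0.53). Without knockout replicate 2 it was −0.065. Ccno, the cyclin required for centriole multiplication in multiciliated cells, gave 463, 375 and 498 in knockout lungs, against 358, 328 and 465 in wild-type lungs. Here too the groups overlapped, and the difference was 0.22 with a standard error of 0.18. It ran from 0.12 without wild type replicate 2 to 0.37 without wild type replicate 3. Myb, a transcription factor of cells entering the multiciliated fate that is also used by blood progenitors and dividing cells, stood at 1304, 1533 and 1233 in knockout lungs and at 1225, 1173 and 949 in wild-type lungs. It was the only regulator whose knockout arrays all exceeded the wild-type arrays, by a narrow margin (log2 0.28, SE 0.14, adjusted p = 0.407), at a probe set whose name marks possible cross-hybridisation. Its other 2 tested probe sets differed by 0.17 and 0.38 in the same direction with overlap.

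The RFX factors gave no clear difference. Rfx2 was dim, with 197, 123 and 110 in knockout lungs and 150, 119 and 114 in wild-type lungs. Only replicate 1 stood out in each group, and the difference of 0.14 turned to −0.12 without knockout replicate 1. Rfx3 had 951, 1279 and 882 in knockout lungs and 348, 1011 and 1149 in wild-type lungs at its brighter probe set. Wild type replicate 1 alone was low: the log2 difference of 0.47 became −0.074 without it. The second tested probe set of Rfx3, a dim one, differed by −0.48. Over the 5 tested regulators the median difference was 0.22, and none had an unadjusted p under 0.05 (limma). Of all tested genes 9.14% had such a p in the higher direction, and a count of 0 among 5 genes is near that share.

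Dynein arms, the motors of the axoneme, held the widest single difference of the list. All 11 tested members of this group were higher in knockout lungs, with a median of 0.33. At the brightest probe set 3 had an unadjusted p under 0.05 (limma), against 9.14% of all tested genes in that direction. Dnah2, an inner-arm heavy chain, had 191, 182 and 196 in knockout lungs against 57.3, 93.2 and 89.3 in wild-type lungs. This was a 2.43-fold difference and the largest of the list (log2 1.28, SE 0.27, adjusted p = 0.135), at a signal near the dim end of the list. Dnah1, also an inner-arm heavy chain, gave 221, 264 and 229 in knockout lungs against 141, 173 and 136 in wild-type lungs, with a gap between the groups (1.59-fold, adjusted p = 0.227). Dnaic2, an intermediate chain that anchors outer arms, was at 412, 470.2 and 488 in knockout lungs and at 216, 351 and 315 in wild-type lungs. The groups were again apart (1.58-fold, adjusted p = 0.232), at a probe set whose name marks possible cross-hybridisation.

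Dnali1, the inner-arm light intermediate chain, had 2 tested probe sets. The brighter gave 581, 750.4 and 545 in knockout lungs and 579, 471 and 470 in wild-type lungs, which overlap, and the other differed by 0.43 with an unadjusted p of 0.036 in limma's test. The remaining dynein genes were less clear. The outer-arm heavy chains Dnah5, Dnah9 and Dnah11 differed by 0.22, 0.16 and 0.37, each with overlapping groups. For the inner-arm chain Dnah6 the knockout arrays ran from 356 to 431 and the wild-type arrays from 289 to 331, so that the groups did not overlap (log2 0.32, adjusted p = 0.420). Dnah7a, the outer-arm intermediate chain Dnaic1 and the assembly factor Lrrc6 differed by 0.33, 0.43 and 0.23 with overlap. For Dnaic1 the name of that probe set marks possible cross-hybridisation.

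Radial spokes relay signals from the central pair to the dynein arms. Of their 5 tested members 3 had an unadjusted p under 0.05 (limma), against 9.14% of all tested genes in the higher direction. The spoke-head gene Rsph1 had 1119, 1146 and 1324 in knockout lungs against 929, 548 and 568 in wild-type lungs. Every knockout array was higher, with wild type replicate 1 nearest to them (1.80-fold, log2 0.85, SE 0.20, adjusted p = 0.150). Lrrc23, a spoke component, again had wild type replicate 1 nearest to the knockouts, at a brighter level, with 2816, 2683 and 3003 in knockout lungs against 2372, 1616 and 1543 in wild-type lungs (1.57-fold, adjusted p = 0.160). Cfap206, a protein at the base of the spokes, was at 579.5, 597 and 667 in knockout lungs and at 419, 542 and 378 in wild-type lungs. Its groups did not overlap (1.39-fold, adjusted p = 0.271), although wild type replicate 2 came within reach of the lowest knockout array. The spoke-head genes Rsph9 and Rsph4a differed by 0.33 and 0.24 with overlapping groups.

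All 4 tested central pair genes were higher in knockout lungs, with a median of 0.24. Spag6l, Spag16, Hydin and the kinase Stk36, which is needed to assemble the pair, differed by 0.05, 0.35, 0.48 and 0.14. None had an unadjusted p under 0.05 (limma) or groups without overlap. Of all tested genes 9.14% had such a p and 12.6% had no overlap, in the higher direction. A count of 0 among 4 genes is near those shares. Spag17 stayed below the filter, with mean signals of 61.0 in knockout lungs and 50.3 in wild-type lungs at its brighter probe set. It is the 1 member with a probe set that was not tested. The molecular ruler and the nexin links set the spacing of arms and spokes and hold the doublets together. Of their 4 tested members 3 had an unadjusted p under 0.05 (limma), against the same 9.14% of all tested genes. Iqcg, of the nexin link, had 179.6, 221 and 209 in knockout lungs against 121, 129 and 113 in wild-type lungs, a clean separation (1.67-fold, adjusted p = 0.203). Ccdc113, an axonemal coiled-coil protein, gave 427, 519 and 452 in knockout lungs and 341, 354 and 293 in wild-type lungs (1.42-fold, adjusted p = 0.232). The ruler gene Ccdc40 was at 322, 352 and 311 in knockout lungs against 271, 253 and 225 in wild-type lungs, also without overlap (1.32-fold, adjusted p = 0.340). Its partner Ccdc39 differed by 0.20 with overlap.

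Tubulins, tektins and proteins inside the doublet included both the most clearly separated gene and some of the flattest. Tubb4b, the beta tubulin of ciliary axonemes, had 9468, 8866 and 9314 in knockout lungs against 5048, 6719 and 5881 in wild-type lungs. It was the member of smallest p (1.58-fold, log2 0.66, SE 0.11, adjusted p = 0.0934), but of its 6 probe sets only 2 were tested, and the dimmer of these, which may cross-hybridise, differed by −0.09 with overlap. Tekt1, a filament protein of the doublet wall, gave 667, 876 and 695 in knockout lungs and 444, 443 and 516 in wild-type lungs, clearly apart (1.59-fold, log2 0.67, SE 0.15, adjusted p = 0.138). Pifo, encoding pitchfork, stood at 1441, 1656 and 1996 in knockout lungs against 1144, 1326 and 1172 in wild-type lungs. It too had no overlap (1.39-fold, adjusted p = 0.206). Mns1, a protein of the doublet lumen, had 504, 361 and 483 in knockout lungs and 295, 389.5 and 287 in wild-type lungs. Here the lowest knockout array lay below the highest wild-type array (1.39-fold, adjusted p = 0.339).

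The brightest member, Tuba1a, is an alpha tubulin of many cell types, neurons above all, and its signals were 18848, 20854 and 23884 in knockout lungs and 21220.4, 19816 and 18649 in wild-type lungs. The groups overlapped, with a log2 difference of 0.09 (95% confidence interval from −0.17 to 0.34). The name of the Tuba1a probe set marks possible cross-hybridisation. Tppp3, a microtubule-binding protein abundant in multiciliated cells, had 2877, 3458 and 3533 in knockout lungs against 3667, 2846 and 2800.0 in wild-type lungs. Its highest array was a wild type, and the difference was 0.09 (95% confidence interval from −0.21 to 0.39). Tekt2, Tekt4 and Enkur, of the doublet wall and lumen, differed by 0.09, 0.57 and 0.11 with overlapping groups. For Tekt2, Tekt4, Enkur and Tppp3 wild type replicate 1 was the highest of the wild-type arrays, as for Rsph1 and Lrrc23.

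Among the transport and motor genes and the adenylate kinases, Dynlrb2, a light chain of dynein, was the bright member that separated. Its signals were 5654, 6260.5 and 6703 in knockout lungs against 4996, 4797 and 4261 in wild-type lungs (1.32-fold, log2 0.41, SE 0.10, adjusted p = 0.172). The intraflagellar transport genes Ift88 and Ift172, which primary cilia use as well, differed by 0.21 and 0.29, and the kinesin gene Kif9 by 0.26, each with overlap. Ak8, an adenylate kinase of motile cilia, gave 288, 274 and 285 in knockout lungs and 160.0, 246 and 157 in wild-type lungs. The knockout arrays were close to each other and all above the wild-type arrays (1.54-fold, log2 0.62, adjusted p = 0.279), with wild type replicate 2 nearest to them. Ak7, the related kinase, differed by 0.12 with overlap.

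**Figure D2:**
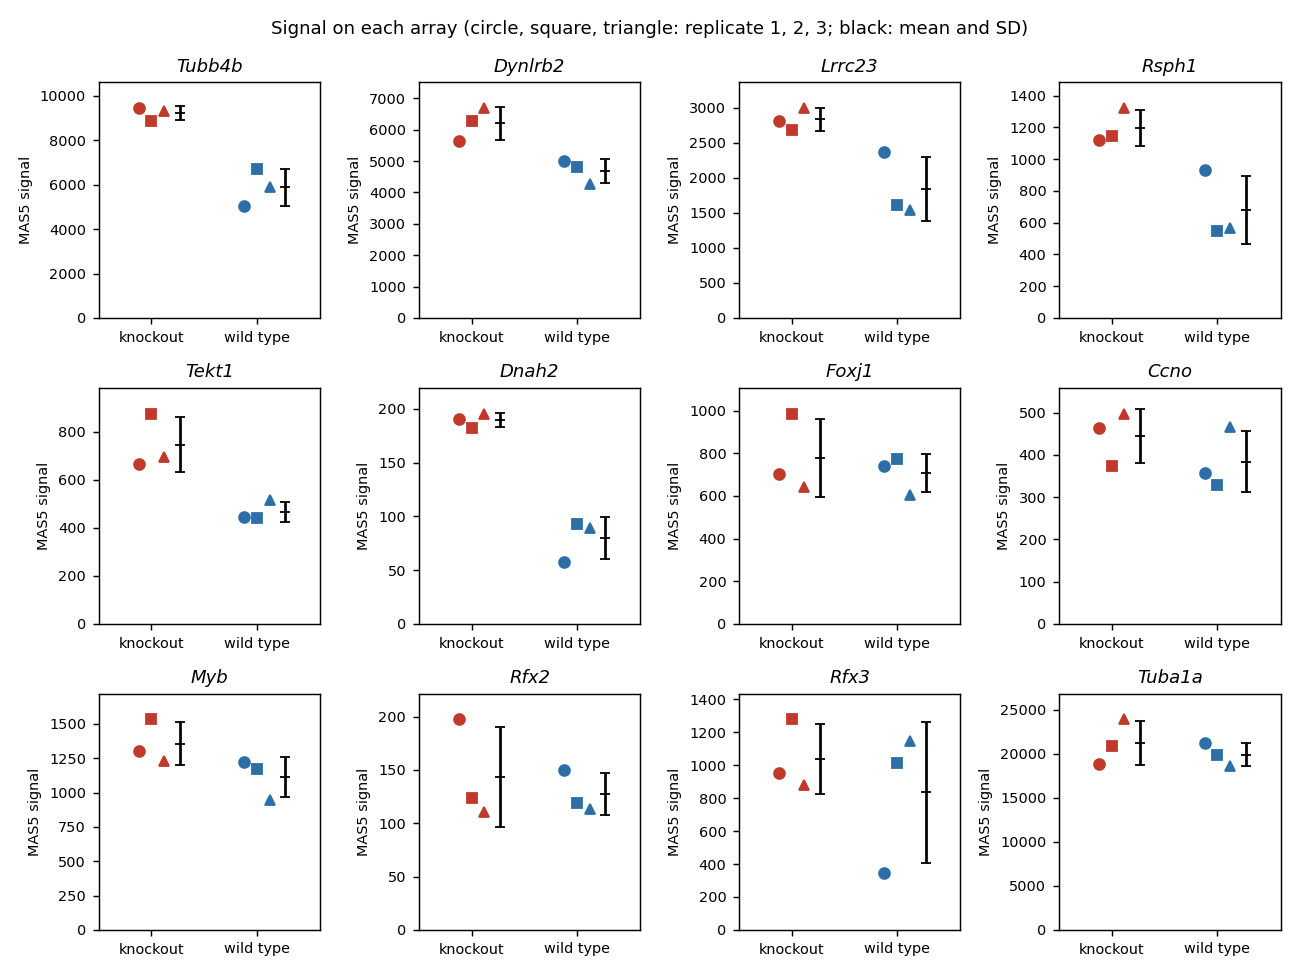
MAS5 signal (linear scale, each axis from 0) of 12 members on each of the 6 arrays, with Carm1 knockout in red at the left and wild type in blue at the right of each panel, and the mean and SD (n = 3) in black. Tubb4b, Dynlrb2, Lrrc23, Rsph1, Tekt1 and Dnah2 have no overlap between the groups, whereas among the regulators only Myb is without overlap.

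More than 1 probe set was tested for 7 of the 44 genes. Over all 52 tested member probe sets, 49 were higher in knockout lungs and 3 lower, the lower ones being the second probe sets of Rfx3, Tubb4b and Lrrc6 (−0.48, −0.09 and −0.01). Averaging the tested probe sets of each gene left 43 of the 44 genes higher and gave a median of 0.32. The members with and without GTTGCC in a promoter had similar medians, a difference that was not tested. The median difference was 0.38 over 22 tested members with the letters and 0.33 over 17 without. Of these, 8 and 6 had an unadjusted p under 0.05 (limma), against 9.14% of all tested genes in the higher direction. The 5 tested members with no promoter given had a median of 0.23, and 1 had such a p.

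Array by array, knockout replicate 2 most often carried the highest ciliary signal. A knockout array was the highest of the 6 for 38 of the 44 members, and for 21 of these it was knockout replicate 2. A wild-type array was the lowest for 40, and for 20 of these it was wild type replicate 3. Relative to the mean of each gene over the 6 arrays, the median member stood at 0.12, 0.30 and 0.14 on the log2 scale in knockout replicates 1 to 3 and at −0.19, −0.12 and −0.28 in wild type replicates 1 to 3. The groups did not overlap in these medians. Summed over the members, to which Tuba1a and Tubb4b contribute most, the signals were 57907, 63518 and 65583 in knockout lungs and 52756, 51698 and 47736 in wild-type lungs, so that by sum knockout replicate 3 was highest. Wild type replicates 1 and 2 were each the highest wild-type array for 19 members, so the wild-type lungs were not in the same order for every gene. Knockout replicate 2 and wild type replicate 3 were the 2 arrays with Y-linked transcripts, 1 in each group. A sex term in the fit therefore could not change the differences. That all 44 members were again higher with a median of 0.33 is thus no check on sex. With the term 14 members had an unadjusted p under 0.05 (limma).

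**Figure D3:**
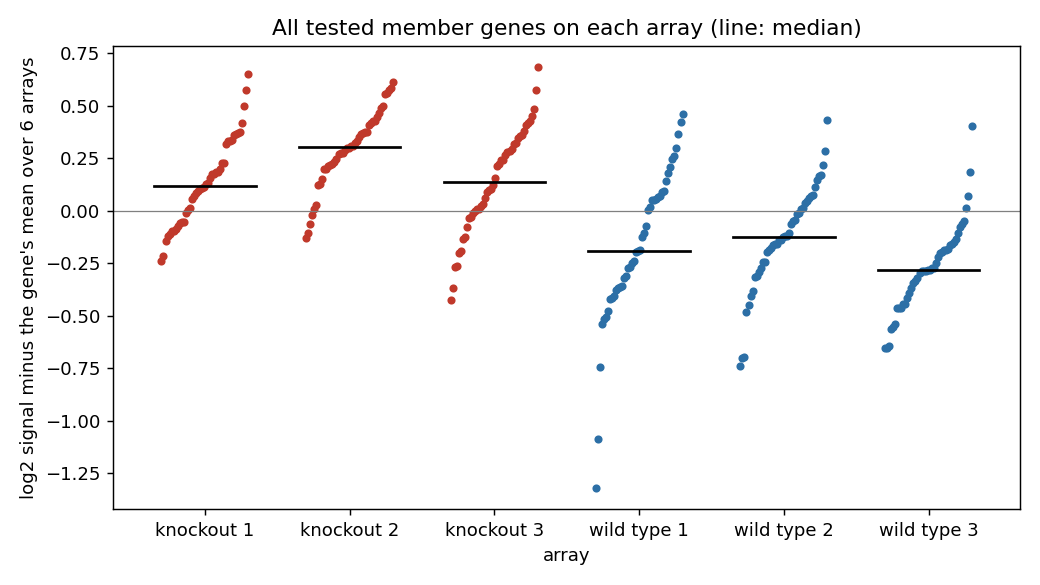
Each point is 1 of the 44 tested member genes on 1 array, as log2 signal minus that gene's mean over the 6 arrays, sorted within the array, with Carm1 knockout arrays in red, wild-type arrays in blue and the median as a black line. The knockout medians lie between 0.12 and 0.30 and the wild-type medians between −0.28 and −0.12.

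Wild type replicates 1 and 3 carried bacterial control RNA, with a median signal of 579 and 375 over 27 control probe sets, against 3.77 to 14.1 on the other 4 arrays, all knockouts included. With that RNA as a term, the knockouts are set against wild type replicate 2. Only 1 wild-type array then carries the comparison, so the sizes of the differences are given here without p-values. In that fit 39 of the 44 members were higher with a median of 0.27. The 15 members with an unadjusted p under 0.05 in the main fit (limma) were all again higher. The difference shrank by more than 1.5 times for 4 of the 15. It was 0.20 in place of 0.62 for Ak8, 0.18 in place of 0.48 for Cfap206, 0.19 in place of 0.47 for Mns1 and 0.38 in place of 0.66 for Dnaic2. The 5 members that were lower with the term were Ccdc39, Foxj1, Rsph4a, Dnah9 and Dnah5. As a check of the labels, Carm1 had signals of 395, 374 and 511 in knockout lungs against 814, 678 and 865 in wild-type lungs at its 1 probe set. Its adjusted p was 0.105. The position of the probe set with respect to the deletion is unknown here.

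Other ciliary genes, taken from a list of 84 further components of motile cilia, had a median close to that of the members. Of 63 tested, 54 were higher in knockout lungs and 9 lower, with a median of 0.33. An unadjusted p under 0.05 was reached by 23 (36.5%), all higher, and none passed the adjusted p. The clearest were Cfap52, an inner protein of the doublet (841 ± 49.2 in knockout lungs and 525 ± 35.1 in wild-type lungs, SD, n = 3 each, adjusted p = 0.0955), and Fam183b (1067 ± 7.02 in knockout lungs and 651 ± 122 in wild-type lungs, adjusted p = 0.125). Genes of intraflagellar transport, the BBSome and the transition zone, which primary and motile cilia share, had a smaller median. Of 37 tested, 32 were higher and 5 lower with a median of 0.19. Groups were without overlap in the higher direction for 8 (21.6%), against 12.6% of all genes. In the lower direction this held for 1, against 10.5% of all genes. An unadjusted p under 0.05 (limma) was reached in the higher direction by 3 (8.11%), against 9.14% of all genes. Ift27, a small GTPase of the transport particle, was the first of these (735 ± 97.7 in knockout lungs and 494 ± 61.9 in wild-type lungs, adjusted p = 0.182). The name of its probe set marks possible cross-hybridisation. Whether the lists differ from each other was not tested.

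Markers of the other cells that could carry ciliary or airway RNA are given beside these values, and their part in the result was not tested. Pan-epithelial genes summed to signals of 27312 to 28968 in knockout lungs and 25916 to 31842 in wild-type lungs, with 2 of 5 higher and a median of −0.06. Their mean log2 deviations were 0.044, 0.039 and −0.077 in knockout lungs and 0.190, −0.112 and −0.084 in wild-type lungs. Centring the arrays on these genes left all 44 members higher with a median of 0.32. It shifts every member's difference alike, and with group means this close it could change little. Airway secretory genes summed to 113196 to 161266 in knockout lungs and 97364 to 147828 in wild-type lungs, with 7 of 11 tested genes higher. Of the 11, 4 (36.4%) had an unadjusted p under 0.05 (limma), all higher in knockout lungs, against 9.14% of all genes. Only 1 (9.09%) was higher without overlap, against 12.6% of all genes, and the median of the 11 was 0.10. Reg3g, an antimicrobial lectin, had 1121, 1479 and 4927 in knockout lungs against 92.7, 2240 and 67.7 in wild-type lungs (8.34-fold, adjusted p = 0.309). Scgb3a1, a secretoglobin, had 5537, 8743 and 38858 in knockout lungs against 939, 11130 and 233 in wild-type lungs (9.17-fold, adjusted p = 0.312). For both, knockout replicate 3 was highest, and wild type replicates 1 and 3, the arrays with bacterial RNA, were low. The secretory sums were lowest on wild type replicate 3, which was also lowest for the ciliary members. Airway basal cell genes were higher for all 5 tested, without overlap for 2 (40%), against 12.6% of all genes. Trp63, the defining factor of basal cells, was below the filter with Krt14 and Krt17. As in all lists here, sums take every gene with a probe set, tested or not. For the 8 basal genes they were 2910 to 7198 in knockout lungs and 1002 to 1613 in wild-type lungs. Krt15 alone gave 2662, 2436 and 5748 in knockout lungs and 830, 1231 and 702 in wild-type lungs.

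Knockout replicate 3 differed from the other lungs in airway cartilage genes, whose sum was 10423 there against 324 and 1033 in the other knockout lungs and 507 to 602 in wild-type lungs. The basal cell sum of 7198 was that of the same array. Without knockout replicate 3, the members had a median of 0.36 and 43 of 44 were higher. Proliferation genes were higher in knockout lungs for all 9 tested, with a median of 0.76. Of these, 8 (88.9%) had an unadjusted p under 0.05 (limma), against 9.14% of all genes in that direction. Their sums were 22523 to 32209 in knockout lungs and 15562 to 20636 in wild-type lungs, and among the knockouts they were lowest on replicate 2. Alveolar type I cell genes were lower for all 6 tested, with a median of −0.57. Of the 6, 4 had an unadjusted p under 0.05 (limma), against 7.36% of all genes in that direction. Both medians lay farther from 0 than the 0.33 of the members. The type I sums were 41369 to 55084 in knockout lungs and 60328 to 89156 in wild-type lungs. Type II cell genes summed to 98163 to 112752 in knockout lungs and 97612 to 128152 in wild-type lungs. Of the neuroendocrine list only 2 of 7 genes were tested and of the neuron list 1 of 8 (Stmn2, log2 −0.81), with sums of 358 to 500.1 in knockout lungs and 370 to 436 in wild-type lungs for the first list and of 518 to 719 in knockout lungs and 771 to 1110 in wild-type lungs for the second. Erythroid genes summed to 8099 to 10704 in knockout lungs and 8182 to 14110.5 in wild-type lungs.

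**Figure D4:**
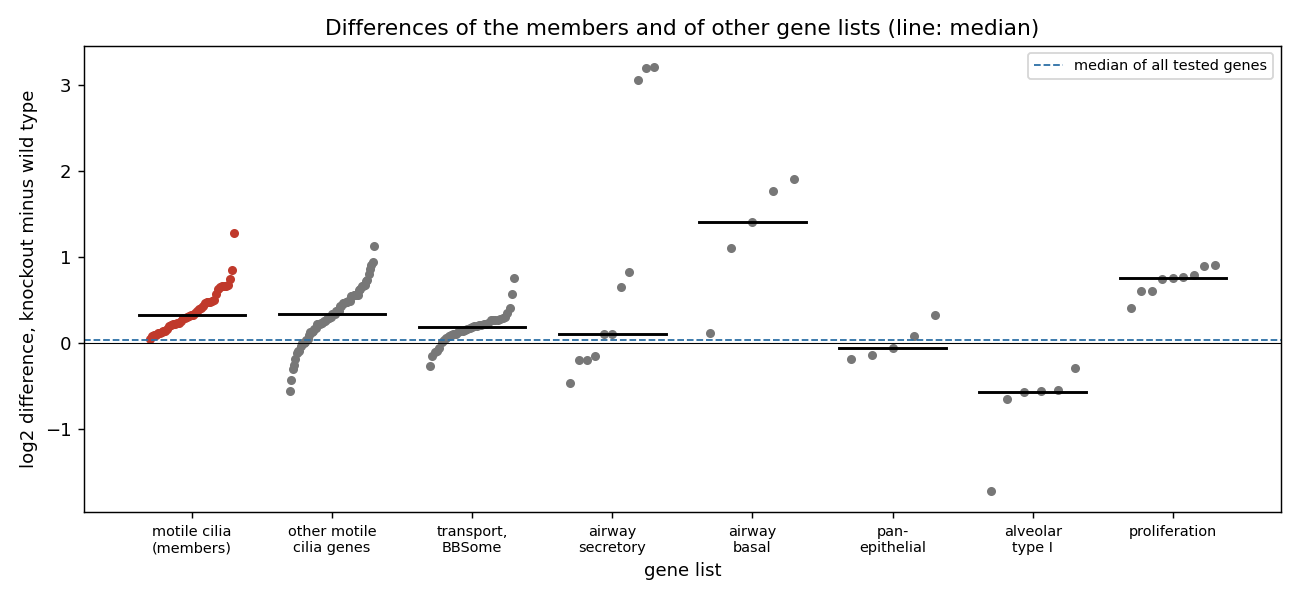
Each point is the log2 difference, Carm1 knockout minus wild type (n = 3 arrays each), of 1 gene at its brightest tested probe set, sorted within its list, with the list's median as a black line and the median of all tested genes (0.029) dashed. The members (red) have a median of 0.33, other motile cilia genes 0.33 and genes of transport and the BBSome 0.19.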

How the data were processed

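Total RNA was labelled as biotin cRNA and hybridised to Affymetrix Mouse Genome 430 2.0 arrays, per the labels' protocols. The authors deposited linear intensity values. MAS5 is the tool that the submitters' processing notes name for them. All 6 arrays shared a mean of 500 once 2% of probe sets were trimmed from either end, so the deposited intensity values had been scaled to 1 level, and no further normalization was applied. Median signals ran from 106 to 121 and correlations between arrays from 0.937 to 0.969. The number of arrays limits the precision.

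Symbols came from the platform annotation, updated through the gene ID in RefSeq's GRCm38.p6 table. Of 45101 probe sets, 64 were controls and 27022 passed the filter. They were fitted on log2 signals with limma 3.58.1 in R 4.3.3 (eBayes with an intensity trend, two-sided), knockout minus wild type, and adjusted by Benjamini and Hochberg over all tested probe sets. The fit was tested on simulated data. Members and lists were chosen with earlier results of these data known. Values on every array are given for the regulators, for members with an unadjusted p under 0.05 at any tested probe set and for the 5 brightest members. From the other lists at most 2 genes of smallest p are named, and other names and the centring on epithelial genes were chosen after their values were seen.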

Additional observations from a re-analysis of the deposited data

How the results depend on the processing

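The median over the members was above 0 under every alternative run. In each fit of single probe sets 0 member probe sets passed the adjusted p, and the smallest adjusted p of a member ran from 0.0624 with robust variance to 0.447 with bacterial RNA as a term. It was 0.173 with arrays centred on pan-epithelial genes, and 0.116 for the mean of each gene's probe sets. The members' median was 0.29 with quantile normalization, 0.27 with median centring, 0.33 with no filter, 0.30 with the 60th percentile filter, where 33 of 33 were higher, and 0.31 with log2(signal + 16). With median centring Spag6l was lower. Leaving out 1 array gave medians from 0.28 to 0.39 and 40 to 43 of 44 members higher. For single members, the difference of Foxj1 was −0.017 with bacterial RNA as a term and ran from −0.065 to 0.25 when 1 array was left out. That range was −0.12 to 0.30 for Rfx2, −0.074 to 0.79 for Rfx3 and −0.0030 to 0.17 for Tuba1a, and averaging the probe sets of Rfx3 gave −0.0060. Leaving out 1 array moved the difference by more than 1.5 times for 25 of the 44 members, none of them among the 15 with an unadjusted p under 0.05. Those 15 were picked on these same arrays for a difference that was large against the spread. Their smaller moves therefore follow at least in part from that choice and are no separate support. Besides those above, values ran from 0.12 to 0.37 for Ccno, from 0.02 (without wild type replicate 3) to 0.21 (without wild type replicate 1) for Tppp3, from 0.16 (without knockout replicate 2) to 0.40 (without wild type replicate 1) for Dnali1 and from 0.17 (without wild type replicate 3) to 0.36 (without wild type replicate 1) for Myb. With bacterial RNA as a term 24 of the 44 moved by that factor. The 8 probe sets that passed over the whole array, none of them a member's, became 0 without an intensity trend, 40 with robust variance, 4 with sex as a term, 2 with bacterial RNA as a term and between 0 and 13 when 1 array was left out (0 without knockout replicate 2 or 3 or wild type replicate 1 or 3, 2 without wild type replicate 2, 13 without knockout replicate 1). The cause was not tested. The labels number the samples of both groups 1 to 3. Deviations of same-numbered arrays correlated at −0.136, −0.38 and −0.00561, and those of all number pairs at −0.38 to 0.374. So few arrays cannot show whether the numbers pair the lungs. With the replicate block 0 probe sets passed, and 13 members had an unadjusted p under 0.05 (limma). The block is balanced over the groups and could not change the members' median of 0.33.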

Other observations

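Below the filter, 19 member probe sets were not tested. Of these, 13 had a higher mean signal in knockout lungs and 6 a lower one. The groups were without overlap for 2 of the 19, which are named for that after their values were seen. The second probe set of Hydin had 19.9, 10.6 and 16.3 in knockout lungs against 6.62, 4.65 and 3.25 in wild-type lungs. A probe set of Tubb4b, one whose name marks possible cross-hybridisation, went the other way, with 35.5, 46.8 and 42.1 in knockout lungs against 99.7, 53.3 and 63.1 in wild-type lungs.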
